A study of Canis lupus familiaris with 13 samples.

Results

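Gene expression in the failing hearts of Dobermans was set against that in the hearts of control dogs of mixed breed. The comparison took 6 of the 13 arrays of the series: 3 of heart tissue from Dobermans with dilated cardiomyopathy, named K, L and R, and 3 of heart tissue from control mongrels, named P1, P4 and P9. All 23836 probe sets of the array that are not controls entered it, and the 14302 whose mean signal reached the 40th percentile, a signal of 108, were tested. A probe set is a group of short oligonucleotides that reports 1 transcript, or several where it is shared between them. At least 1 tested probe set was present for 5242 named genes. Another 4 arrays held heart tissue of Boxers with dilated cardiomyopathy, and 3 held that of mongrels whose hearts had been paced. No healthy Doberman was included, so breed and disease cannot be told apart in this comparison. The labels name no drug, genotype, age, sex, stage of disease or chamber of the heart for the 6 samples compared. They name each sample separately but do not say that each came from a separate animal, so the p-values measure the spread between these samples.

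In dilated cardiomyopathy the ventricles widen and lose force, and the Doberman is among the dog breeds in which it is most common. Heart muscle makes most of its ATP in mitochondria, from fatty acids that are broken down by beta-oxidation and passed through the citric acid cycle to the respiratory chain. Gap junctions at the intercalated discs carry the electrical impulse from cell to cell, and calcium released from the sarcoplasmic reticulum through the ryanodine receptor starts each contraction.

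The 3 Doberman arrays were unlike each other. Affymetrix arrays carry probe sets at the 3′ and the 5′ end of the GAPDH transcript, and their ratio rises when RNA is broken or copied incompletely. The array of Doberman K had a ratio of 1.08, that of L 2.10 and that of R 3.62, against 1.02 to 1.07 on the controls. The same ratio for actin placed the arrays otherwise: as log2 it was -3.17 to -2.34 on the controls, -1.90 on K, -1.92 on L and -0.085 on R, so by actin K stood above every control and level with L. The median signal was 160.3 on K, 234 on L and 219.7 on R, against 142.5 to 146 on the controls. The summed signal of 22 contractile genes that mark cardiomyocytes lay between 329400 and 447230 on the controls, was 356980 on K, and reached 666770 on L and 700830 on R. None of the 22 was at 0 on any of the 6 arrays. Only 3 values of the whole series were at 0, and the 22 had passed the signal filter, so this shows little. In limma, the Doberman arrays had 4.86 times the residual variance of the controls, and each group was therefore given its own spread. For the main genes below, signals are given for K beside L and R.

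Of the 14302 probe sets, 723 (5.06%) had an adjusted p under 0.05 in limma. Of these 159 were higher and 564 lower in the Dobermans, and 3707 had an unadjusted p under 0.05. Of the 723, 203 carried no gene symbol. By gene, each represented by its brightest tested probe set by mean signal, 60 of 5242 were higher (1.14%) and 241 were lower (4.6%). All 3 Dobermans lay beyond all 3 controls in 666 of the 723 passing probe sets, against 4793 of all 14302 (33.5%). The median change over all genes was 0.04 on the log2 scale, at 0.02 in K, 0.03 in L and 0.10 in R, and over all 14302 probe sets it was 0.19, at 0.04 in K and 0.29 in both L and R. When each array was centred on its median, the median over all genes became -0.40, and 52 probe sets passed as higher and 1825 as lower. With quantile normalization 125 passed as higher and 638 as lower. With 1 spread for all groups 2047 were higher and 1597 lower, and with a weight for each array 1967 and 1898. All 3 Dobermans lay above all 3 controls in 961 genes and below them in 824.

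Most genes that passed had a smaller change in K than in L and R, the arrays with raised GAPDH ratios. Over the 241 lower genes K had a median change of -0.56, L of -2.07 and R of -1.89. In 186 of the 241, K had less than 50% of the mean change of L and R on the log2 scale, and in 229 it had the smallest change of the 3 Dobermans. The 60 higher genes had median changes of 0.82 in K, 1.73 in L and 1.43 in R. K had the smallest change in 53 of the 60, and 25 of them had less than 50% of the mean change of L and R in K. On direction K mostly went with L and R. It lay on the same side of the control mean in 236 of the 241 lower and in all 60 higher genes. K lay beyond all 3 controls in 224 and 59 of them. These genes were chosen by a test that includes K, which favours such agreement. Over all 5242 genes, all 3 Dobermans lay below the controls in 824 and above them in 961. K was then tested alone against the controls, with its spread assumed to be that of the other groups. In that fit 55 genes were higher (1.05%) and 105 lower (2%), and 52 of the 241 lower and 10 of the 60 higher genes passed again. Both fits set K against the same 3 controls, so this is not an independent repeat.

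**Figure D1:**
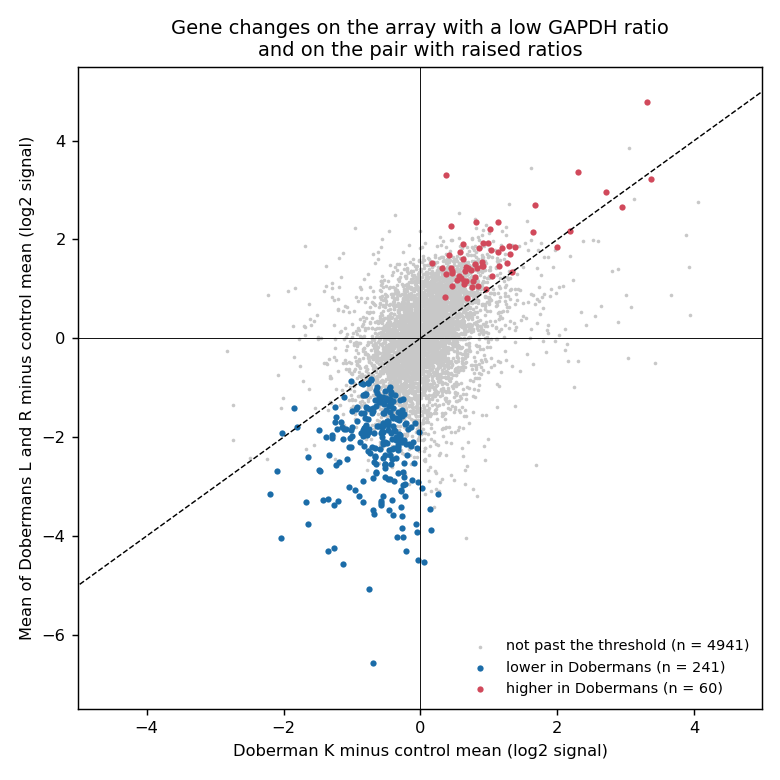
Change of each of the 5242 genes from the control mean, on the log2 scale, in Doberman K (horizontal axis) and as the mean of Dobermans L and R (vertical axis), with equal change on the dashed line. The 241 genes that were lower (blue) mostly lie below the dashed line, with medians of -0.56 in K, -2.07 in L and -1.89 in R, and the 60 higher genes (red) have medians of 0.82, 1.73 and 1.43.

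Leaving out L or R ended every adjusted call over the 3 Dobermans, and leaving out K did not. Without L and without R no probe set passed in limma, although 1339 and 1423 had an unadjusted p under 0.05, and without K 3732 passed. Without control P1 340 passed, and without P4 404. Of the 91 calls over the 3 Dobermans that were followed by name, 45 were lost without P1 and 31 without P4. Of the 57 such calls in K alone, 47 were lost without P1, 23 without P4 and 49 in a fit of only the groups compared, and those limits hold for the genes below that passed in K alone. With the GAPDH ratio as a covariate 0 passed, and 497 had an unadjusted p under 0.05; that ratio is raised only on L and R, so the covariate and these arrays cannot be told apart. No call over the 3 Dobermans given below therefore passed with only L or only R left out. In those fits the Doberman spread came from K and R or from K and L. A lost call there does not show that K lacked the change.

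Probe sets of the same gene should report the same change, and on L and R they often did not. For the 1543 genes with 2 or more tested probe sets, the distance between the highest and lowest change of a gene was taken on each array. Its median was 0.411 log2 units on K, 1.21 on L and 1.11 on R. Each control array set against the other 2 gave 0.309 to 0.365, each Boxer against the controls 0.363 to 0.432, and each paced sample 0.632 to 0.659. The distance was over 1 log2 unit for 13.5% of the genes on K, 58.1% on L and 53.5% on R, and over 2 units for 1.56%, 27.8% and 23.4%. The paced samples, with GAPDH ratios from 0.967 to 0.990, also stood above the controls, and like L and R they had raised median signals, from 208 to 219. The part of RNA quality in these distances was not tested.

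Few genes passed on all of their probe sets, while more had all of them on 1 side of the control mean. Of the 254 genes with several tested probe sets and at least 1 that passed, 27 passed on every probe set, all 27 as lower, and 3 passed in opposite directions on different probe sets. No gene passed as higher on every one of several probe sets in limma, although 17 had an unadjusted p under 0.05 on all of them, against 111 as lower. Among the 97 lower genes with several probe sets, all probe sets lay on the lower side in 71 genes on K, 64 on L and 68 on R. Among the 17 such higher genes, all lay on the higher side in 15 on K, 10 on L and 11 on R. These genes were chosen because their brightest probe set passed, which favours agreement. Over all 1543 genes with several probe sets, the signs differed in 41.1% on K, 47.1% on L and 49.4% on R.

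In 23 genes every one of 2 or more probe sets passed as lower, with K, L and R below all controls on each, and the 10 with the largest median change are given. SELENBP1, which breaks down methanethiol and binds selenium, had the largest, at -3.43 over 2 probe sets. Its signals were 2094, 2478 and 1549.8 in controls P1, P4 and P9 and 634, 59 and 279 in Dobermans K, L and R. The change on that probe set was -3.05 ± 0.50 (SE) with an adjusted p of 0.0135 in limma, and K alone passed with 0.0177. PYGM, the muscle phosphorylase that releases glucose units from glycogen, fell on both probe sets, and its brighter one gave 5631, 6157 and 4522 in the controls and 2464, 274 and 163 in K, L and R. L and R were lower than K by a wide margin, but K too lay below every control, with an adjusted p of 0.0254 alone. DECR1, a mitochondrial reductase needed to oxidise unsaturated fatty acids, fell on all 4 of its probe sets, with changes of -1.70 to -3.32 on the log2 scale. Its brightest probe set gave 3068, 1877 and 2840.0 in the controls and 981, 259 and 44.9 in the Dobermans, which ordered the Dobermans as K, then L, then R. ACSL1, the main enzyme of heart muscle that activates long-chain fatty acids, fell on all 4 probe sets as well. On its brightest the controls were at 9287, 9469 and 8269 and the Dobermans close together at 3774, 2907 and 2599, with a change of -1.25 in K. The Dobermans were close together on the dimmest too, at 390.3, 388 and 499.7 in K, L and R. On the other sets L and R fell much further than K, at 1272, 112.7 and 398.5 and at 828.8, 181.6 and 231.5.

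Another 6 genes completed this group. PSAP, the precursor of the saposins that help degrade lipids in lysosomes, gave 2402, 1571 and 2194 in the controls and 913, 522 and 444 in the Dobermans. Its other probe set fell much further on L and R, with 1269, 61.1 and 17.4 in K, L and R against 4549.6, 2189 and 3381 in the controls. FSD2, a muscle protein found with the ryanodine receptor, gave 4131, 3674 and 3361 against 1323, 673 and 480.1, and passed in K alone with 0.0105 in limma. PTGDS, a synthase of prostaglandin D2, gave 3041, 2552 and 2813 against 1159, 445 and 142, and it also passed in K alone, with 0.0321. PDE1C, a phosphodiesterase of heart muscle that is switched on by calcium and calmodulin, changed by -2.12 and -2.17 on its 2 probe sets, the closest match between probe sets in this group. NNT, which makes NADPH in the inner mitochondrial membrane, and HADHB, a subunit of the mitochondrial trifunctional protein of beta-oxidation, rested on L and R. On the brightest probe set NNT gave 6479 in K against 6666, 6564 and 7334 in the controls, and 1999.8 and 2142 in L and R. HADHB gave 10392 in K against 16524, 15628 and 12220.0, and 4835 and 5851 in L and R. Neither passed in K alone, where the adjusted p was 0.83 for NNT and 0.165 for HADHB.

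**Figure D2:**
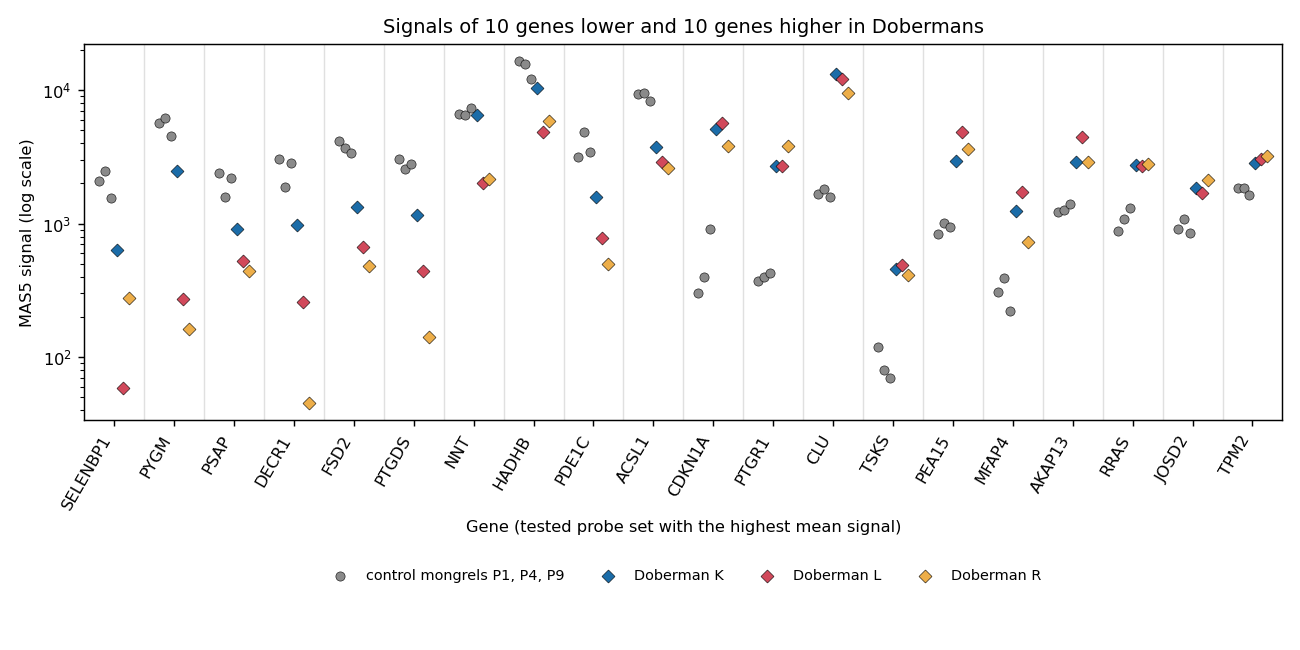
MAS5 signal on a log scale of 10 genes that fell on every tested probe set (left, SELENBP1 to ACSL1) and 10 higher genes that also passed in Doberman K alone (right, CDKN1A to TPM2), 1 point per array, grey for the 3 controls and coloured for the 3 Dobermans. K lies between the controls and L and R for most of the lower genes, and close to L and R for most of the higher genes shown, which were chosen because they passed in K alone.

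Among the gene lists examined, those of the citric acid cycle and of beta-oxidation had the largest shares of lower genes, though the lists of mitochondrial genes together hold a minor part of the 241. The citric acid cycle and the entry of pyruvate into it had 24 tested genes, of which 15 fell and none passed as higher, even at an unadjusted p, with a median change of -1.23. Beta-oxidation and its supply had 10 of 23 lower and none higher, and a median of -0.86. The respiratory chain had 6 of 47 lower and none higher, with a median of -0.49, and the mitochondrial ribosome 6 of 50 lower and 1 higher, with a median of -0.55. Over all genes tested 4.6% passed as lower and the median was 0.04. In bulk tissue, fewer cells of a type and less RNA per cell cannot be told apart.

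In Doberman K the same lists shifted the same way by less. For the citric acid cycle list the median stood at -0.63 for K, -1.80 for L and -1.01 for R, and 5 of its 24 genes passed as lower in K alone. For beta-oxidation the medians were -0.53, -1.10 and -0.90, with 6 of 23 lower in K alone. For the respiratory chain they were -0.46, -0.84 and -0.30, with 6 of 47 lower in K alone, so here K lay between L and R. For the mitochondrial ribosome they were -0.22, -0.79 and -0.46, with 4 of 50 lower in K alone. Of all genes 2% passed as lower in K alone. The counts depended on the controls too: without P1, 9 citric acid cycle, 4 beta-oxidation, 4 respiratory chain and 3 mitochondrial ribosome genes were lower over the 3 Dobermans. In K alone without P1, the first 3 lists had 0, 1 and 0 lower genes.

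**Figure D3:**
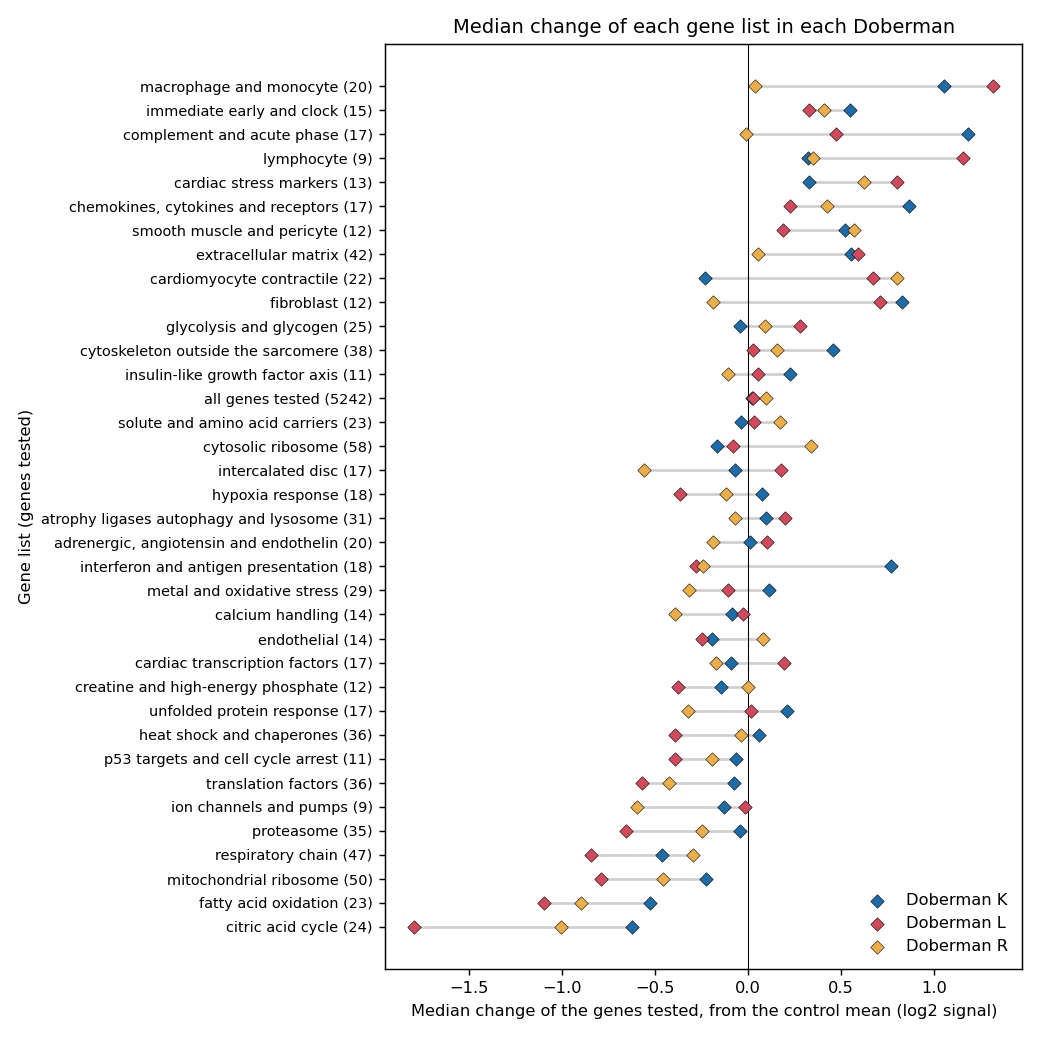
Median change from the control mean (log2 signal) of each gene list with 9 or more tested genes, for Dobermans K, L and R, with the number of genes in brackets and a line joining the lowest to the highest. The citric acid cycle and fatty acid oxidation lists are lowest in all 3 Dobermans, and the interferon list is at 0.77 in K against -0.28 in L and -0.25 in R.

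Several genes of pyruvate entry had lower signals. MPC1, a subunit of the carrier that brings pyruvate into mitochondria, gave 12362, 11830.0 and 12331 in the controls and 7573, 3499 and 2944 in the Dobermans, a change of -1.51 ± 0.29 (SE, adjusted p = 0.0173 in limma). PDHB and PDHX, subunits of the pyruvate dehydrogenase complex that turns pyruvate into acetyl-CoA, changed by -1.83 ± 0.30 and -2.03 ± 0.37. PDHB gave 8942, 9940.4 and 9107 against 5855, 1532 and 1982 and passed in K alone (adjusted p = 0.0306), while PDHX did not (0.102). PDK1, a kinase that switches the complex off, fell as well, with 2728, 531 and 926 in K, L and R against 3822, 3015 and 3503. PDK4, the kinase form that fasting and fatty acids induce, has 1 tested probe set, and it gave 15207, 13634 and 11245 in the controls and 8259.9, 1588 and 8532 in the Dobermans. All 3 Dobermans lay below the controls there, but L was far below K and R, and the change of -1.46 ± 0.81 did not pass (adjusted p = 0.259).

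Inside the cycle, SUCLA2, a subunit of the succinyl-CoA synthetase that makes ATP, had the largest fall: 4230.5, 4844 and 5237 in the controls, 2935 in K and only 31.3 and 36.3 in L and R. K lay below every control but far nearer to them than to L and R, and did not pass alone (adjusted p = 0.141). SUCLG1, the subunit it pairs with, gave 5715, 6245 and 7514 in K, L and R against 9651, 10156 and 7984, did not pass over the 3 Dobermans (0.145), and passed in K alone (0.0447). FH, which turns fumarate into malate, was even over the 3 Dobermans, at 1922, 1717 and 1776 against 3466, 2882 and 3551, with changes of -0.77 in K, -0.93 in L and -0.88 in R. IDH3B and IDH3G, subunits of the NAD-dependent isocitrate dehydrogenase, changed by -1.28 ± 0.26 and -1.53 ± 0.33, and both passed in K alone as well (0.0278 and 0.0375). DLD, DLST, MPC2, OGDH, PDP1, SDHB and SUCLG2 completed the 15, with changes of -0.80, -1.50, -1.19, -3.64, -2.43, -1.02 and -1.47.

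In beta-oxidation, ACAT1, the thiolase that ends the breakdown of ketone bodies and isoleucine, gave 7393, 7935 and 6792 in the controls and 3214, 986 and 1670.0 in the Dobermans. Its change was -2.07 ± 0.31 (SE, adjusted p = 0.0128 in limma), and K passed alone with 0.0167. ETFDH and ETFB, which pass electrons from acyl-CoA dehydrogenases to the respiratory chain, changed by -1.57 ± 0.25 and -1.21 ± 0.28. ETFDH gave 10100.0, 11504 and 9872 against 5717, 2509 and 3029.5, and both passed in K alone. ECHS1, a hydratase of short acyl chains, CPT2, the inner carnitine palmitoyltransferase, CD36, a fatty acid transporter, and LPL, which frees fatty acids from lipoproteins, changed by -1.17, -1.19, -2.94 and -2.62. MLYCD, which removes the malonyl-CoA that restrains fatty acid entry, gave 7586, 5609 and 5681 against 3426, 4255 and 3329. It did not pass over the 3 Dobermans (adjusted p = 0.0736) but passed in K alone (0.0378).

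In the respiratory chain the passing genes were 5 of complex I and CYC1 of complex III. NDUFS8 was the most even, at 5499.5, 5345 and 3713 in the Dobermans against 10231, 10164 and 9308, a change of -1.05 ± 0.20 (SE, adjusted p = 0.0166 in limma), and K passed alone (0.0177). NDUFV2, a subunit of the NADH-oxidising arm, gave 8522, 4168 and 7557 against 15336, 15712 and 13327, and passed in K as well (0.0215). NDUFA9 gave 9152, 11621 and 11497 in the controls, 8453 in K and 657 and 624 in L and R. The fall of NDUFA9 thus stood on L and R. NDUFS1, the largest subunit of complex I, gave 5836, 3092 and 1685 against 8411, 9110.3 and 8071. NDUFS4, NDUFB10, NDUFS3 and UQCRC2 were lower in K alone and did not pass over the 3 Dobermans; NDUFS3, for example, gave 8200.5, 8588 and 19220.0 against 15185, 13983 and 13028, with R above every control.

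Among mitochondrial ribosomal proteins, MRPL48 gave 3572, 5084 and 3514 in the controls and a narrow 1830.0, 1781 and 1720.1 in the Dobermans, and it passed in K alone (adjusted p = 0.0276 in limma). MRPL1 and MRPL39 passed in both fits too, with changes of -1.58 ± 0.28 and -1.02 ± 0.23 (SE). MRPL42 rested on L and R, with 2219 in K, 334 and 458 in L and R and 3044, 2385 and 2543 in the controls. MRPL3 and MRPS28 changed by -1.05 and -1.06, and MRPL52 rose by 0.99.

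Sugar breakdown showed no common shift. Of 25 genes of glycolysis and glycogen, 1 rose and 2 fell, with a median of 0.22 that became -0.22 with median centring. ALDOC, an aldolase form best known from brain, gave 649.5, 1610.3 and 619 in the Dobermans against 349, 309.7 and 219.8, and PYGM is described above. PKM, the muscle pyruvate kinase, had 2795 in K, inside the control range of 2812, 2949 and 1902, and 176 and 136 in L and R. Of 12 genes of creatine and high-energy phosphate, 1 fell: VDAC2, a channel of the outer mitochondrial membrane, at 14797, 7604 and 9711 against 19652, 20592 and 17132.

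In several genes K lay on the other side of the control mean from L and R, and 13 of the 723 passing probe sets did so. PPP1CB, a catalytic subunit of protein phosphatase 1, gave 2297, 2617 and 2367 in the controls, 2503 in K and 33.1 and 212 in L and R. ELAVL1, which stabilises messenger RNA, gave 479, 598 and 570.5, then 601 and 31.3 and 39.5. SOD2, the mitochondrial superoxide dismutase, gave 4874, 4732 and 4852, then 5766 and 648 and 434. All 3, and PKM, passed as lower over the 3 Dobermans, with adjusted p from 0.0338 to 0.0404 in limma, and in K alone their adjusted p ran from 0.465 to 0.943. The other tested probe set of SOD2 gave 3530.3, 1963 and 2932 in K, L and R against 4179.6, 3843 and 3792 in the controls, a change of -0.53 ± 0.22 that did not pass (adjusted p = 0.16).

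Few genes of protein making, folding and removal passed, and most of those that fell had a smaller change in K than in L and R. Over all genes tested 4.6% passed as lower and 1.14% as higher. The list counts here and below, many of 1 to 3 genes, were not tested against those shares. The proteasome had 5 of 35 lower and none higher (2 at an unadjusted p), with medians of -0.04 in K, -0.66 in L and -0.25 in R. PSMG2, a chaperone of proteasome assembly, was the most even, at 2223, 1600.5 and 1965 against 4108, 3703 and 3848, and the only member to pass in K alone (adjusted p = 0.0276 in limma). The core subunits PSMA6 and PSMA2 and the ATPase PSMC5 changed by -2.04 ± 0.38, -1.20 ± 0.28 and -1.38 ± 0.29 (SE), and PSMB2 by -0.87. Of 36 heat shock proteins and chaperones 1 rose and 3 fell. STIP1, which links HSP70 to HSP90, gave 1157 in K and 198 and 120.1 in L and R against 1675, 1875 and 2115. HSPA9, the mitochondrial HSP70, and CCT8, a subunit of the chaperonin that folds actin and tubulin, changed by -0.52 in K, -2.23 in L and -1.95 in R and by -0.09 in K, -2.75 in L and -2.32 in R.

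Of 17 genes of the unfolded protein response 2 fell, and none passed as higher (3 at an unadjusted p). HSPA5, the HSP70 of the endoplasmic reticulum, gave 2448, 3235 and 3415 in the controls, 2921 in K and 90.2 and 153 in L and R, and PDIA3, a disulfide isomerase, gave 875, 1127 and 898, then 727 and 34.8 and 114. K was inside the control range for HSPA5. Of 36 translation factors 1 rose (EIF4A3, a helicase of the exon junction complex, 0.99 ± 0.23) and 3 fell (EIF3H, EIF3L and EIF4B, at -0.95 ± 0.23, -0.84 ± 0.22 and -2.14 ± 0.52). Of 58 cytosolic ribosomal proteins 1 fell, RPS18, at 5587, 1242 and 2252 against 10053, 11146 and 6149.9; ribosomal protein genes have many near-identical copies, so its value is uncertain.

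Of 31 genes of muscle wasting, autophagy and lysosomes 1 rose and 3 fell. ASB12, a muscle protein of the ubiquitin ligase family with SOCS boxes, gave 662, 647 and 542 in the controls and 137, 28.1 and 17 in the Dobermans, a change of -3.38 ± 0.49 (SE, adjusted p = 0.0128 in limma), and K passed alone (0.0173). FBXO40, a ubiquitin ligase of striated muscle, gave 1509 in K, 58.5 and 392 in L and R and 1694, 1604 and 2323 in the controls, so its fall stood on L and R. CTSB, a lysosomal protease, rose in all 3 Dobermans, at 7838, 15314 and 9176 against 4571, 4027 and 4715.

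At the intercalated disc, 2 of 17 genes fell and both also passed in K alone, while the list median was 0.02, and -0.42 with median centring. GJA1, the main gap junction protein of the ventricle, gave 5116, 6257 and 6441 in the controls and 1272, 439.9 and 946 in the Dobermans on its 1 tested probe set. K was the highest of the Dobermans and still lay far below the lowest control. The change was -2.84 ± 0.36 (SE) with an adjusted p of 0.0128 in limma, and in K alone it was -2.20 with 0.00525. CDH2, the cadherin that joins heart muscle cells at the disc, gave 281, 329 and 216 against 64, 56.8 and 145. K and L were lower than R, and the change of -1.55 ± 0.40 passed over the 3 Dobermans (0.0419) and in K (0.0177).

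The genes of calcium handling gave 1 rise and 1 fall of 14. HRC, which binds calcium in the sarcoplasmic reticulum, gave 2373, 2217 and 2239 in the controls and 1193, 899.5 and 541 in the Dobermans, a change of -1.43 ± 0.33 (SE, adjusted p = 0.0278 in limma). ATP2B1, a calcium pump of the surface membrane, gave 853, 816 and 1018 against 1336, 3183 and 2901, with K nearest to the controls. RYR2, the calcium release channel of heart muscle, has 4 tested probe sets, all with a negative change, and 1 that passed. That one gave 1942, 2134 and 1652 in the controls and 658, 88.7 and 255 in the Dobermans, a change of -2.84 ± 0.48 (adjusted p = 0.0137), and passed in K alone (0.0289). The brightest gave 8946, 8123 and 7556 against 4793, 3504 and 3269, with no overlap, and lay at the edge of the threshold (adjusted p = 0.0507). The second brightest gave 2586 in K and 5333 and 2988 in L and R against 5741, 5747 and 5290.0, so L reached the control range and K and R did not.

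ATP2A2, the pump that returns calcium to the sarcoplasmic reticulum, has 10 tested probe sets, and they disagreed on L and R. The brightest gave 24114, 25473 and 17099 in the controls and 16977, 31608 and 18341 in the Dobermans, and did not pass (adjusted p = 0.949 in limma). The next, with nearly the same control signals of 25078, 27170.0 and 18198, gave 19167 in K but 2696 and 1696 in L and R, and passed at 0.0227. The third gave 12078 in K and 384 and 953 in L and R against 15693, 19054 and 13776, and passed at 0.0198. On K the 3 probe sets changed by -0.37, -0.27 and -0.41, and none of the 10 passed there. The remaining 7 did not pass over the 3 Dobermans.

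Among the genes of the sarcomere, MYH7 showed the same split. MYH7, the slow myosin heavy chain of the ventricle, has 6 tested probe sets. Its brightest gave 38486, 39028 and 26108 in the controls and 28680.0, 61099 and 58977 in the Dobermans, and did not pass (adjusted p = 0.314 in limma). A pair of others with control signals of 25901, 27789 and 20126 and of 26063, 30955 and 20752 gave 2010.3 and 2606 and 899.6 and 1744 in L and R, and 17074 and 18042 in K. Both passed as lower, at 0.0165 and 0.0173, while L and R lay above all controls on the brightest. The arrays of L and R thus gave MYH7 signals above and below those of all controls, depending on the probe set, and K changed by -0.24, -0.51 and -0.50 on these 3.

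TTN, the giant spring protein of the sarcomere, passed on 1 of 17 tested probe sets, with 10819, 12362 and 10445 in the controls and 7182, 772 and 3664 in the Dobermans. The brightest gave 24644, 26276 and 20318 against 21484, 36550.0 and 48437 and did not pass (adjusted p = 0.212 in limma). Over the 17, K had a median change of -0.84, L of 0.42 and R of 1.06. ACTA1, skeletal actin, passed on 1 of 4, and this was a fall in every Doberman: 3409.9, 2679.7 and 2558 in the controls and 299, 552 and 230.1 in the Dobermans, with an adjusted p of 0.0128 over the 3 and 0.00525 in K alone. Its other 3 probe sets changed by -0.02 ± 0.39, 0.13 ± 0.40 and 0.81 ± 0.39 (SE) and did not pass. Actin and myosin genes have close relatives, and a probe set marked as shared between transcripts can report several of them.

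**Figure D4:**
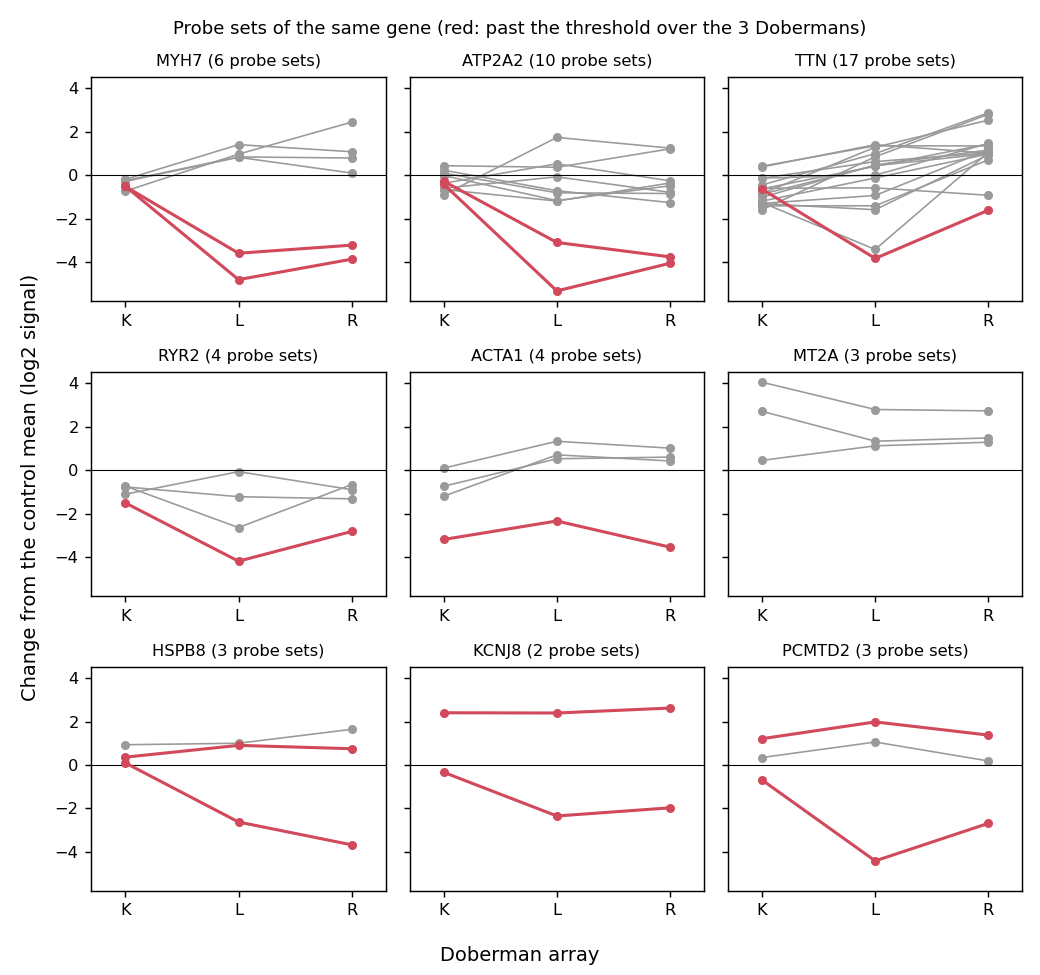
Change from the control mean (log2 signal) of every tested probe set of 9 genes on the arrays of Dobermans K, L and R, 1 line per probe set, red where it passed over the 3 Dobermans. The lines of MYH7, ATP2A2 and HSPB8 lie close together on K and spread apart on L and R; those of MT2A lie above 0 on all 3.

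Of the 22 contractile genes 2 rose, DES and TCAP, and none passed as lower (1 at an unadjusted p). DES, the desmin filament that links the sarcomeres, gave 13682, 15949 and 12766 in the controls and 18716, 45939 and 44678 in the Dobermans. TCAP, which caps titin at the Z-disc, gave 16888, 18681 and 13967 against 18353, 50588 and 44408, with K inside the control range. Neither passed in K alone, where ACTA1 was lower on its brightest probe set (320.5 against 645, 656 and 1025); the adjusted p of DES and TCAP there were 0.235 and 0.643 in limma. The list median was 0.39, at -0.23 in K, 0.67 in L and 0.80 in R, and it was -0.05 with median centring and 0.00 with quantile normalization, so its sign depended on the array and on the scaling.

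Only HSPB8, KCNJ8 and PCMTD2 passed in opposite directions on different probe sets. HSPB8, a small heat shock protein of muscle, gave 11577, 11633 and 11728 in the controls and 14979, 21852 and 19620.0 in the Dobermans on its brightest probe set, which passed as higher (adjusted p = 0.0436 in limma). Another gave 8974, 8949 and 8494 against 9438 in K and 1416 and 674 in L and R, and passed as lower (0.0316). KCNJ8, the pore of an ATP-sensitive potassium channel of vessels and heart, gave 2961, 3383 and 2326 against 2265, 549 and 718 on the brighter of its 2 probe sets, and 85.2, 53.3 and 52.3 against 399.6, 396 and 467 on the other. The second is as high in K as in L and R, passed in K alone (0.0237), and had control signals under the filter level of 108. PCMTD2, a protein related to the enzymes that repair aged aspartate residues, changed by -2.59 ± 0.52 and 1.53 ± 0.38 (SE) on its 2 passing probe sets. In HSPB8, KCNJ8 and PCMTD2 the falling probe set changed in K by 0.10, -0.33 and -0.69, and it fell further in L and R.

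Among the genes that passed over the 3 Dobermans, rises were fewer than falls, a balance that depended on the weights and the scaling. CDKN1A, the p21 inhibitor of the cell cycle, gave 304, 398 and 916 in the controls and 5143, 5671 and 3840.3 in the Dobermans on 1 tested probe set. P9 was the highest control, and the change of 3.28 ± 0.75 (SE) passed over the 3 Dobermans (adjusted p = 0.0267 in limma) and in K (0.0258), but not without P1 or without P4. It was the only rise among 11 p53 targets and genes of cell cycle arrest, and CCNG1, another p53 target, passed as lower on the strength of L and R, with 7019 in K, 554 and 503 in L and R and 7079, 7080.4 and 7885 in the controls. PTGR1, a reductase that inactivates leukotrienes and prostaglandins, gave 374, 396 and 423 against 2693, 2697 and 3814, a change of 2.88 ± 0.46 (adjusted p = 0.0128). CLU, a chaperone outside cells that also restrains complement, gave 1681, 1809.8 and 1578 against 13150.0, 12089 and 9493. The change of CLU in K was as large as those in L and R, that of PTGR1 was near that in L and under that in R, and both passed in K alone, at 0.0105 and 0.0199.

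All 10 genes that passed as higher both over the 3 Dobermans and in K were picked out after their values were seen. Besides CDKN1A, PTGR1 and CLU they were TSKS, PEA15, MFAP4, AKAP13, RRAS, JOSD2 and TPM2. RRAS, a small GTPase related to RAS, was nearly the same in the Dobermans, at 2762, 2708 and 2795 against 884, 1083 and 1303. TPM2, the beta tropomyosin, gave 2840.0, 3031 and 3187 against 1833, 1851 and 1634. PEA15, which binds ERK kinases, gave 2933, 4829.7 and 3642 against 842, 1008 and 947. TSKS, known from testis, had control signals of 118, 80.0 and 69.8, around the filter level, and 456, 489 and 415 in the Dobermans, so the size of its change depends on the pseudocount. JOSD2, a deubiquitinase, gave 1849.6, 1692 and 2131 against 914, 1074 and 856. AKAP13, a scaffold of protein kinase A and an activator of RHOA, passed on 2 of its 4 probe sets, by 1.37 ± 0.28 and 1.74 ± 0.44 (SE), and its dimmest gave 258, 11.6 and 51.8 against 91, 188 and 127.

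Of 38 cytoskeletal genes outside the sarcomere 3 rose and none passed as lower, at an unadjusted p either: DES, MAP1A and TMSB10. MAP1A, which binds microtubules, gave 134, 132 and 168 in the controls and 493, 1030.5 and 1016 in the Dobermans, and TMSB10, which binds actin monomers, gave 1552, 1990.1 and 1752 against 3077, 3846 and 4549.9. In K alone MAP1B and TUBB2A passed as higher instead, with 3704 and 10372 against 1976, 1861 and 1920.4 and 5028, 5089.7 and 4429 in the controls. The list median was 0.21, and -0.23 with median centring. MT2A, a metallothionein that binds zinc and copper, lay above all controls in all 3 Dobermans on all 3 probe sets, the brightest at 532, 474 and 396 against 7954, 3317 and 3175. The spread was wide, and it did not pass (adjusted p = 0.117 in limma, 0.0651 in K alone); metallothionein genes are close relatives and may share probes.

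Among 29 genes of metal and oxidative stress, PTGR1 rose and AKR1B1, GSTO1, PRDX3 and SOD2 fell. AKR1B1, the aldose reductase, was almost the same in the 3 Dobermans, at 2903, 2843 and 2991 against 11970.0, 9357 and 9323, a change of -1.80 ± 0.31 (SE, adjusted p = 0.0144 in limma), and passed in K alone (0.0105). PRDX3, the mitochondrial peroxiredoxin, gave 8356 in K and 3294 and 2642 in L and R against 9560.3, 10198 and 9416. Of 18 genes of the response to low oxygen none passed as higher (2 at an unadjusted p) and 3 fell, PDK1, MXI1 and EPAS1. EPAS1, the HIF-2 alpha transcription factor, gave 894 in K and 124 and 74.6 in L and R against 1264, 1257 and 1197. FHL2, a LIM protein that binds titin and represses calcineurin, was the only one of 13 cardiac stress markers to pass, and it fell evenly: 18477, 20271 and 16284 in the controls and 7645, 7449 and 6505 in the Dobermans, with an adjusted p of 0.0159 over the 3 and 0.0153 in K alone.

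Markers of other cell types were measured alongside. The summed signal of 20 macrophage and monocyte markers was 4734 to 7567 on the controls, 15202 on K, 12162 on L and 6062 on R. None of the 20 passed over the 3 Dobermans (4 had an unadjusted p under 0.05, all higher), and C1QC and CCL2 passed as higher in K alone. The sum of 12 fibroblast markers was 30600 to 45444 on the controls and 51426, 48692 and 34205 on K, L and R. CD248 and MFAP4 rose, at 481, 816 and 864 against 300.2, 353 and 250.2 and 1248, 1736 and 727 against 307, 392 and 222. The sum of 12 smooth muscle and pericyte markers was 25423 to 36725 on the controls and 45569 to 49694 on the Dobermans; CRIP1, a LIM protein, rose (7842, 21631 and 15585 against 3255, 4494 and 3069), and KCNJ8, above, passed in opposite directions on its 2 probe sets. The sum of 14 endothelial markers was 30578 to 38039 on the controls and 27358 to 32249 on the Dobermans, and none passed (1 higher and 2 lower at an unadjusted p). The sum of 9 lymphocyte markers was 2693 to 3110.5 on the controls and 2897, 4212 and 3137 on K, L and R, and their median change was 0.60. All 3 Dobermans lay above all controls in 4 of the 9 and below them in 1. That 1 was the only marker of the list to pass, JCHAIN, the joining chain of secreted antibodies, at 767, 505 and 330.5 against 1285, 1256 and 1391. No marker of these lists was at 0 on any of the 6 arrays, which shows little, since only 3 values of the series were. The part of these cell types in the results was not tested.

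Of 42 genes of the extracellular matrix 1 rose over the 3 Dobermans, MFAP4, a protein bound to elastic fibres, and none passed as lower (1 at an unadjusted p). In all 9 were higher at an unadjusted p under 0.05, and the median of the list was 0.40, at 0.55 in K, 0.59 in L and 0.05 in R, and -0.03 with median centring. In K alone FBLN1, FBLN2, MFAP4 and THBS1 passed as higher. FBLN1 and FBLN2, fibulins of the matrix, gave 2102 and 2326 in K, 677 and 471 and 1306 and 932 in L and R, and 829, 1303 and 720.1 and 1050.5, 1011 and 661 in the controls. FBLN1 in L and R lay below every control.

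Several inflammatory genes passed as higher in Doberman K alone, and most of them had lower signals in L and R. Of 18 genes of the interferon response and antigen presentation, 7 passed as higher in K alone, against 1.05% of all genes, and K had a list median of 0.77, L of -0.28 and R of -0.25. MX1, an interferon-induced GTPase that blocks viruses, gave 332, 718 and 313 in the controls and 6731 in K, with 650.4 and 532 in L and R. Its change in K was 3.95 with an adjusted p of 0.00888 in limma. MX2, its relative, gave 235, 215 and 162, then 1819 in K and 489 and 208 in L and R. OAS2, which senses double-stranded RNA, gave 146, 180.4 and 129, then 1222 and 207 and 178. In these 3, L and R lay near or inside the control range and K far above it, except that L also exceeded the controls in MX2 and OAS2. ISG15, a small protein joined to others after interferon, gave 159, 249 and 186, then 2251 and 61.6 and 271, so L was below every control. CXCL10, a chemokine for T cells, and TAP1, which loads peptides for presentation, gave 1003 and 716 in K, 57.3 and 288 and 37.6 and 201 in L and R, and 262, 119 and 215 and 256, 268 and 266 in the controls, so TAP1 lay below every control in L and R. IRF9, a subunit of the interferon-activated transcription factor, was higher in all 3 Dobermans, at 1283, 1090.2 and 995 against 731, 794 and 693, and passed in K alone (0.0458). Over the 3 Dobermans only DLA-DOA, a chain of a class II molecule, passed, at 372, 674 and 465 against 117, 163 and 151.

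Of 17 genes of complement and the acute phase, 5 passed as higher in K alone: C1QC, C1R, C1S, C3 and CLU. C1R and C1S, the proteases that start the classical pathway, gave 1924 and 4043 in K. The controls gave 366, 596 and 339 and 1234, 1729 and 1073, and L and R gave 364 and 250.1 and 1363 and 1268, within or below the range of the controls. C3, the central component, gave 1428 in K, 449 and 293 in L and R and 286, 545 and 206 in the controls. Of these genes only CLU was as high in L and R. CCL2, a chemokine for monocytes, gave 2103 in K and 783 and 753 in L and R against 258, 266 and 349, VCAM1, which holds leukocytes to vessel walls, gave 1823 in K and 598 and 582 in L and R against 595, 583 and 337, and IL33, an alarm signal of stressed cells, gave 406 in K and 69.4 and 96.6 in L and R against 90.8, 97.7 and 120.0. A difference between K and the other Dobermans was not tested, since it would set 1 array against 2. Without P1, 4 of the interferon genes and 0 of the complement genes passed in K alone; the adjusted p of MX1, MX2 and OAS2 in K stayed under 0.05 in every alternative run on them.

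**Figure D5:**
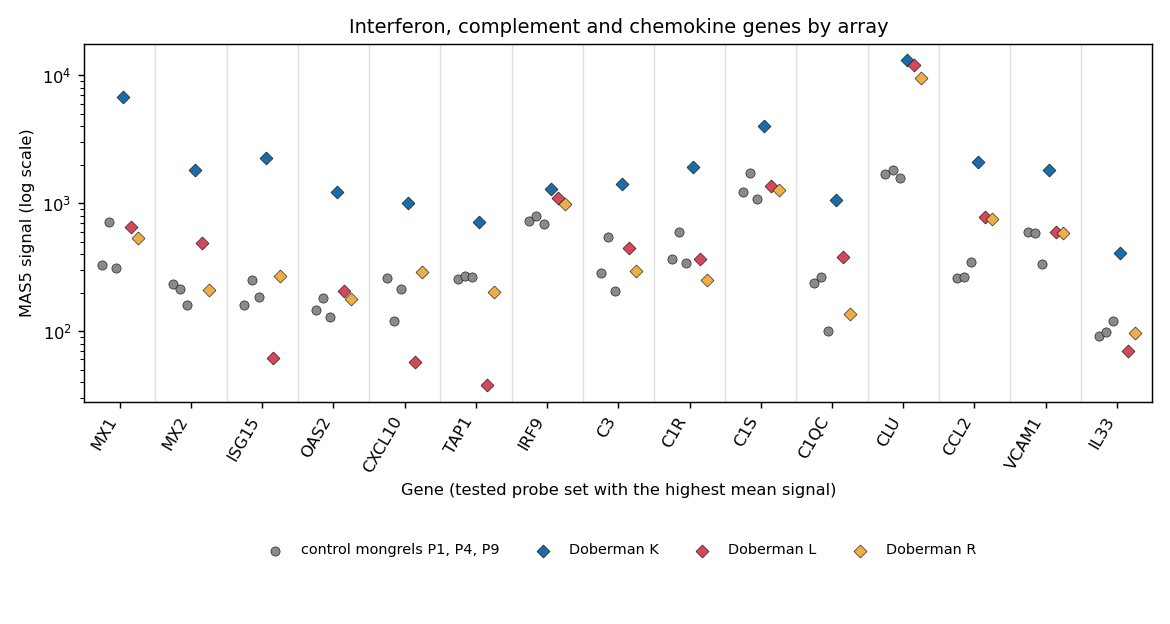
MAS5 signal on a log scale of 15 interferon, complement, chemokine and adhesion genes, 1 point per array, grey for the 3 controls and coloured for the 3 Dobermans. Doberman K is the highest array for all 15, and only CLU, CCL2 and IRF9 have L and R above every control as well.

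The Dobermans were also set against the 4 Boxers with the same diagnosis, which tests a difference in level between these groups and not a change within either breed. No healthy dog of either breed was included, so breed and disease cannot be told apart here either. The GAPDH ratio was 0.968 to 1.09 on the Boxers, so the raised ratios of L and R cannot be told apart from breed. The same Doberman arrays serve in both comparisons. Of 14302 probe sets 1008 passed in limma, 380 higher and 628 lower in the Dobermans, and 412 of 5242 genes passed (7.86%). Of the 723 probe sets that passed against the controls, 496 passed against the Boxers in the same direction. GJA1 was lower than in the Boxers, with a difference of -2.01 on the log2 scale, and so were ACAT1 (-2.06), SUCLA2 (-4.13) and FHL2 (-1.17). PTGR1, PEA15 and TPM2 were higher, by 1.67, 1.80 and 0.91. CDKN1A (1.60), CLU (1.22) and MFAP4 (0.63) did not pass against the Boxers. Without L and without R no probe set passed here either (1496 and 1522 at an unadjusted p), without K 4627 did, and without Boxer 3 606 did.

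The other lists held few or no passing genes. Of 9 ion channels and pumps 1 was lower by its brighter probe set (KCNJ8, which passed as higher on the other), of 17 cardiac transcription factors and their regulators 1 fell (PPP3CB, a catalytic subunit of calcineurin, 917 in K and 54.7 and 223 in L and R against 1263, 1107 and 1339.7), and of 23 solute carriers and channels 1 rose and 1 fell. AQP5, a water channel, gave 242, 909 and 295 in the Dobermans and 33.7, 55.4 and 23.8 in the controls, which is under the filter level, and SLC40A1, the iron exporter, gave 2425, 1152 and 934 against 3474, 2685 and 4100.4. None passed in limma among 7 genes of proliferation (2 higher and 1 lower at an unadjusted p), 15 immediate early and clock genes (1 higher), 17 chemokines, cytokines and receptors (1 higher, 1 lower), 11 of the insulin-like growth factor axis (1 higher, 2 lower), 20 of adrenergic, angiotensin and endothelin signalling (1 higher, 2 lower), 7 atrial markers (1 lower), 4 markers of red cells, fat and nerve (1 higher) and 1 marker of neutrophils and mast cells (1 higher). In K alone CCN2, SYNPO2, STC1, UCHL1 and PFKL passed as higher from these or earlier lists. UCHL1, a deubiquitinase of nerve and stressed muscle, gave 7583 in K and 6262 and 4316 in L and R against 803, 1220.5 and 2264, above every control in all 3, and missed the threshold over the 3 Dobermans (adjusted p = 0.0566).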

How the data were processed

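Heart RNA of 13 samples was hybridised to an Affymetrix canine array, 1 array each. The authors deposited MAS5 signal intensities on a linear scale, per the submitters' processing notes; its version is not stated there. Each array's 2% trimmed mean lay near 500, so the arrays appear scaled to a common level. Of 23913 probe sets 77 are controls. A single gene symbol was annotated for 10549 probe sets, several for 138 and none for 13149.

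Tests used log2(signal + 16), without the probe sets under the 40th percentile of mean log2 signal over the 13 arrays (6.95). In limma 3.58.1 under R 4.3.3, group means were estimated from all 13 arrays, with a weight per group (0.274 for Dobermans, 1.33 for controls), 9 residual degrees of freedom, an intensity trend and Benjamini-Hochberg adjustment over the probe sets tested. With 1 spread for all groups 3644 probe sets would have passed in place of 723. An exact permutation test of 3 samples against 3 cannot give a two-sided p under 0.1, so none was used. The model was also run on simulated data with independent noise and a common spread for K, L and R. The real arrays differ from that setting, since K was unlike L and R.

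Genes are given by their brightest tested probe set. Named were the 10 largest rises and falls on every one of 2 or more probe sets with all Dobermans beyond all controls (0 rises qualified), genes with opposite calls, up to 4 genes with K opposite to L and R, up to 4 members of each list with the smallest p, 9 genes for their agreement, and those called after their values were seen. The comparison and the 39 gene lists were chosen with earlier results of these data known. Alternatives were each sample left out, L and R left out, other weights, fits of only the groups compared, the GAPDH covariate, quantile and median scaling, pseudocounts of 1 and 64, and other filters; those on K alone and on the distance between probe sets were chosen after seeing the data. The labels pair no samples. Sequences and genome positions were not used here. Figures were drawn in matplotlib 3.10.9.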

Additional observations from a re-analysis of the deposited data

Results flagged for a closer look

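Of the 123 genes examined by name, 61 differed between the Dobermans and the Boxers by their brightest tested probe set (adjusted p under 0.05 in limma). Of these, 50 were lower in the Dobermans and 11 higher. Over all 5242 genes 412 (7.86%) differed. Most of the 123 were named because they passed on these same Doberman arrays, which raises their share. Each value is the Doberman mean minus the Boxer mean on the log2 scale. These differences share the 3 Doberman arrays with the comparison above, and none of these calls passed with only L or only R left out.

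Lower among genes of mitochondria were ACAT1 (-2.06), ACSL1 (-1.35), ETFDH (-1.25), DECR1 (-3.49), PDHB (-1.64), PDHX (-1.7), SUCLA2 (-4.13), MPC1 (-1.42), NDUFS8 (-0.84), NDUFV2 (-0.97), NDUFA9 (-2.47), NDUFS1 (-1.17), VDAC2 (-0.79), MRPL1 (-1.5), MRPL42 (-1.83), MRPL48 (-0.94), HSPA9 (-1.42), PRDX3 (-1.29), SOD2 (-2.21), PDK1 (-1.59), FH (-0.98), IDH3G (-1.22), NNT (-1.35) and HADHB (-0.95). Lower among genes of protein making, folding and removal were RPS18 (-1.75), EIF3H (-0.8), PSMA6 (-1.82), PSMC5 (-1.09), PSMG2 (-0.83), PSMA2 (-1.27), STIP1 (-2.16), CCT8 (-1.71), PDIA3 (-2.48), HSPA5 (-2.76), ASB12 (-3.06) and PSAP (-1.49). The other lower genes were GJA1 (-2.01), PYGM (-2.68), CCNG1 (-2.11), AKR1B1 (-1.46), EPAS1 (-1.78), MXI1 (-0.88), FHL2 (-1.17), JCHAIN (-1.57), PPP3CB (-2.36), PPP1CB (-2.73), ELAVL1 (-1.94), SELENBP1 (-1.72), FSD2 (-2) and PTGDS (-2.2). Higher in the Dobermans were DES (1.12), TCAP (1.03), EIF4A3 (0.96), PTGR1 (1.67), CD248 (1.16), CRIP1 (1.62), MAP1A (1.74), PEA15 (1.8), RRAS (0.97), JOSD2 (1.15) and TPM2 (0.91). Probe sets of the genes with opposite calls also differed: PCMTD2 (-1.97 and 1.5), KCNJ8 (2.67) and HSPB8 (-1.72).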

How the results depend on the processing

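With 1 sample left out, the probe sets that passed against the controls numbered 0 to 3732, genes passing on every probe set 0 to 117, genes with opposite calls 0 to 70, passing probe sets with all Dobermans beyond the controls 0 to 3728, probe sets passing against the Boxers 0 to 4627, and genes passing in K alone 24 to 210. The same quantities, where they moved over 1.5-fold, were as follows. With L and R both left out they were 351, 5, 0, 351 and 369 (against the Boxers). With 1 spread for all groups they were 3644, 118, 40, 3112 and 5066. With a weight per array they were 3865, 118, 66, 2555 and 4901. In fits of only the groups compared they were 20, 0, 0, 20 and 2114, and 13 genes passed in K alone. With the GAPDH covariate each of the first 5 was 0. Median centring gave 1877, 116, 1617 and 2541, and quantile normalization and the 70th percentile filter each gave 1 gene with opposite calls.

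Signs turned for some genes. With L and R left out PPP1CB was at 0.047, PKM 0.15, ELAVL1 0.13, SOD2 0.26, TTN -0.14, MYH7 -0.24 and HSPB8 0.10 on its falling probe set. With the covariate TTN was at -0.14 and MYH7 at -0.075, and with quantile normalization MYH7 was at -0.25 and ACTA1 at 0.028. ACTA1 was at 0.35 with a weight per array. With 1 sample left out, ACTA1 ran from -0.39 to 0.56 and ATP2A2 from -0.31 to 0.14. Of the 91 named calls, 91 were lost without L, without R and with the covariate, 84 in the 6-array fit, 56 with L and R left out, 45 without P1, 31 without P4, and none without K or with 1 spread. Of 57 named calls in K alone, 47 were lost without P1 and 49 in the fit of only the groups compared. No paired analysis was possible because the groups share no replicate numbers. The number of arrays, and signals near background, limit the precision.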
